A study of Mus musculus with 9 samples.

Results

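Messenger RNA levels of mouse corneal epithelial cells kept at 8% oxygen were compared, gene by gene, with those of the same cells kept at 21% oxygen. The cells were wild-type iCell-0093a cells, and 3 libraries of polyadenylated RNA represented each oxygen level. No length of exposure is labelled. Nothing in the labels marks the replicates as separate cultures, so the p-values describe the scatter of these libraries and that scatter may be technical. A further 3 libraries at 1% oxygen belong to the study and are used only where stated. A gene entered when it had at least 1 FPKM, a fragment count corrected for transcript length and for the fragments mapped in that library, in at least 3 of the 6 libraries, which kept 11624 of 26445 table entries, 10749 of them at 1 FPKM or more in all 6 libraries.

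Cells sense oxygen mainly through prolyl hydroxylases, enzymes that need oxygen to mark the alpha subunits of hypoxia-inducible factors for degradation. When oxygen falls these factors persist and raise transcription of genes for glycolysis, vessel growth and iron supply, and in deeper hypoxia translation and ribosome production are also curtailed. The corneal epithelium has no blood vessels of its own and takes its oxygen largely from the tear film, so its oxygen supply drops whenever the eyelids close.

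The libraries were similar in FPKM sum (317704 to 325832) and in the number of genes above 0 (19837 to 20569). The 21% libraries varied more than the 8% libraries. The median SD of a gene on the log2 scale was 0.131 at 21% and 0.0869 at 8%, and 21% replicate 3 lay apart from the other 21% libraries on the second principal component. The RNA held both epithelial and mesenchymal marker transcripts. The corneal and conjunctival epithelium markers summed to 1366 to 1715 FPKM at 21% and to 1693 to 1716 at 8%, with 447 to 648 of the keratin gene Krt18 and 74.5 to 90.4 of the epithelial adhesion gene Epcam, and 7 of the 31 stayed under 0.1 FPKM in all 6 libraries. The stromal fibroblast and keratocyte markers summed to 1830 to 2155 FPKM at 21% and to 2193 to 2269 at 8%, and the part of this difference in the results was not tested. Over the 6 libraries these included 764 to 1017 of Vim, 499 to 951 of S100a4 and 282 to 397 of the fibronectin gene Fn1. The transcription factor gene Twist1 was at 30.7 to 40.3. Of the 23 markers in this list 10 or 11 reached 1 FPKM in a library, and 4 stayed under 0.1 in all 6. Lum did not exceed 0.0208 FPKM, Dcn 0.0684, Col3a1 0.112 and Col1a2 0.275. Pax6, the eye field transcription factor that marks corneal epithelium, did not exceed 0.0208 FPKM, so that defining marker was near 0. In RNA from a whole culture, fewer cells of a type and less RNA per cell cannot be told apart.

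At 8% oxygen 1661 of the 11624 genes differed from 21% (limma on log2(FPKM + 1), adjusted p of 0.05 or less), which is 14.3% of those tested. The higher genes numbered 579 (4.98%) and the lower genes 1082 (9.31%), so 34.9% of calls were higher. That balance rested on the scaling, since median-ratio rescaling made 49.8% of calls higher and quantile normalization 47.2%, and the median over all genes was -0.04 on the log2 scale without rescaling. Most differences were small. The median absolute log2 fold change of called genes was 0.46, and 951 calls (57.3%) lay under 0.5, while 37 genes rose by 1 or more and 34 fell by 1 or more. In 4800 genes (41.3%) the 3 values at 8% did not overlap the 3 at 21%. The plot of fold change against level shows both directions at every level of expression.

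**Figure D1:**
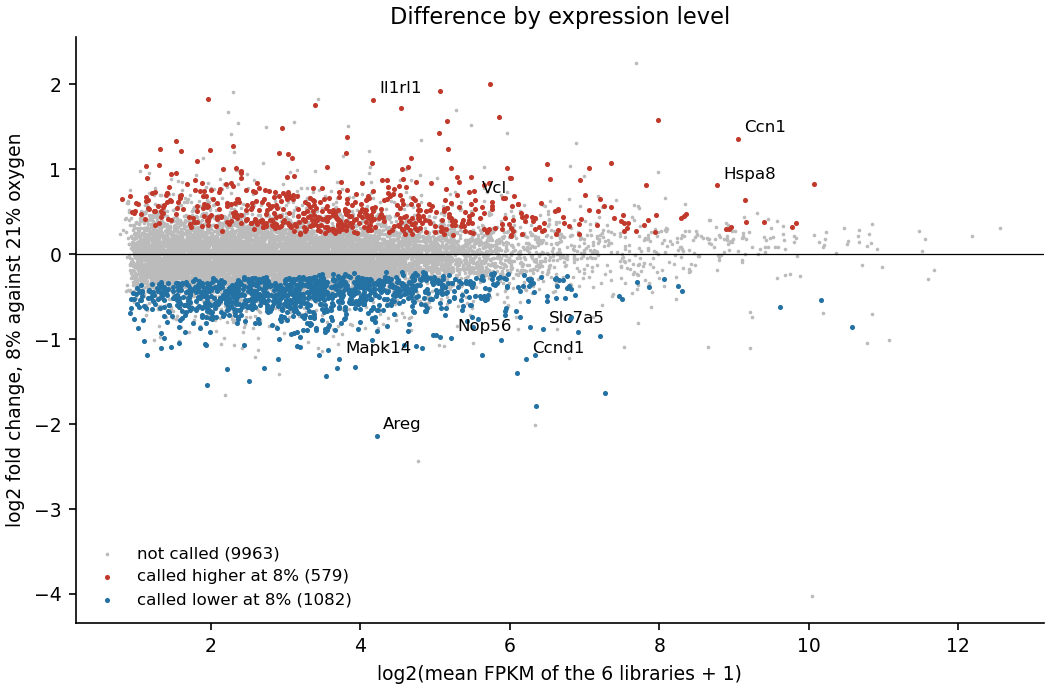
Each point is 1 of 11624 genes, with log2 of the mean FPKM plus 1 over the 6 libraries on the x axis and the log2 fold change at 8% against 21% oxygen on the y axis. The 579 genes called higher (red) and the 1082 called lower (blue) lie on both sides of 0 at all levels, and most lie within 0.5 of it.

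The number of calls depended strongly on single libraries. Leaving out 21% replicate 1 left 223 calls, and leaving out 8% replicate 1, 2 or 3 left 110, 365 and 97, against 1625 and 1612 without 21% replicate 2 or 3. In every called gene the 3 values at 8% lay on one side of the 3 at 21%, so leaving out a library could not turn its direction. Where called genes below are said not to overlap, this holds for every called gene and adds nothing to the call. In all 6 omissions and under the 9 other processing alternatives 56 genes were called, 20 higher and 36 lower. One of those alternatives tests protein-coding nuclear genes alone, so no other class could be among them. Another tests only genes averaging 5 FPKM or more, so no gene with a smaller mean could be among them either. These 56 were listed after their values were seen and recur below as the genes called throughout.

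Promoters of 5 called genes are shown here because each holds a short motif that the results return to. The sequences are from RefSeq (build GRCm38.p6), 5′ to 3′ along the gene's own strand, from 250 bases before to 50 after the annotated start. Capitals mark the CArG box of serum response factor in Vcl (chr14:20929148-20929447, plus strand) and Cnn2 (chr10:79988350-79988649, plus strand), both actin-binding genes that rose. In Areg (chr5:91139349-91139648, plus strand), the growth factor gene that fell furthest among those called throughout, they mark the cyclic AMP response element TGACGTCA. In Ran (chr5:129019906-129020205, plus strand) and Xpot (chr10:121626283-121626582, minus strand), nuclear transport genes that fell, they mark the E-box CACGTG.
Vcl: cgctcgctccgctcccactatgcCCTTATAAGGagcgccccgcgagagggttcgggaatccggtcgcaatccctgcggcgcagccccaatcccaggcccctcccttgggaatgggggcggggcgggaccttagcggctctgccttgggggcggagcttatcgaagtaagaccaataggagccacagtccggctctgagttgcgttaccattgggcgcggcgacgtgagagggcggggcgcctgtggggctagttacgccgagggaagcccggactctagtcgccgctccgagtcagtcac
Cnn2: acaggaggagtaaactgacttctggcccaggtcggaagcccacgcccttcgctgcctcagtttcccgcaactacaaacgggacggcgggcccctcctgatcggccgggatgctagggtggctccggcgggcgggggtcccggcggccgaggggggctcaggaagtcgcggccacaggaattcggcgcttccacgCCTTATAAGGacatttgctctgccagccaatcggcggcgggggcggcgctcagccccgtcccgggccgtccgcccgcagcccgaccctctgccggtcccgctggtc
Areg: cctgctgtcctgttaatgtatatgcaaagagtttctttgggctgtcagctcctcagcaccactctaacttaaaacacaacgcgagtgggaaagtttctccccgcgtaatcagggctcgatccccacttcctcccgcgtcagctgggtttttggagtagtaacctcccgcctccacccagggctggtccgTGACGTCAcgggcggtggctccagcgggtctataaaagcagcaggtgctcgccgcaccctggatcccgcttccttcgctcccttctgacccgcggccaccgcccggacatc
Ran: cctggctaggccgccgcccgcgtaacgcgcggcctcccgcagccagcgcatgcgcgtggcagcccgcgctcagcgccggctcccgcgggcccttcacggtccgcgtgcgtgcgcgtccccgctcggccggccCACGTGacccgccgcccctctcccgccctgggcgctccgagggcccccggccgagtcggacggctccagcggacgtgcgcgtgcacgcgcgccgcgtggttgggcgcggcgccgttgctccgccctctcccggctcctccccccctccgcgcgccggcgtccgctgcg
Xpot: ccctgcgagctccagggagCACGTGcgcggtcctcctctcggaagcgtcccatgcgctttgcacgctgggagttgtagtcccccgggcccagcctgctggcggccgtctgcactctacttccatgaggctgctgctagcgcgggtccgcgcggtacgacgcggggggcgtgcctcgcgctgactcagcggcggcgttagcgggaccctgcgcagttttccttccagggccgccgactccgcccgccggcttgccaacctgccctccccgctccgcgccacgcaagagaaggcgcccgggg

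Il1rl1 and Il18rap, both on chromosome 1, encode the interleukin 33 receptor and the accessory chain of the interleukin 18 receptor, and both rose. Il1rl1 stood at 6.83, 6.11 and 8.02 FPKM at 21% and at 27.3, 25.2 and 28.8 at 8% oxygen, 3.88 times the 21% mean. Il18rap stood at 8.25, 8.24 and 9.24 FPKM at 21% and at 15.99, 16.9 and 15.9 at 8% (log2 fold change 0.85, SE 0.0699, adjusted p = 0.00540). The 8% values of both genes lay well above all 21% values. Il1r1, the interleukin 1 receptor gene that also lies there, did not pass (2.92 FPKM at 21% and 2.26 at 8%, adjusted p = 0.185). Among decoy receptors for the death ligand TRAIL, which mice carry as a cluster on chromosome 7, Tnfrsf23 rose from 8.87 ± 0.472 to 15.4 ± 1.01 FPKM (SD, n = 3, 0.73, SE 0.0746, adjusted p = 0.00828) and Tnfrsf22 from 22.0 to 30.5. Among leukocyte markers Cd68 was also called higher, from 25.4 to 43.3 FPKM. The summed level of these markers was 19.8 to 31.0 FPKM at 21% and 43.2 to 48.1 at 8%, nearly all of it from Cd68. The macrophage receptor gene Csf1r, at 0.445 FPKM at 21% and 1.32 at 8%, passed the filter only through the 8% libraries. Its call as higher therefore adds no support. Cd74 was at 0.895, 1.08 and 0.456 FPKM at 21% and at 1.02, 0.911 and 0.536 at 8%. Of the 15 leukocyte markers 10 stayed under 0.1 FPKM in all 6 libraries and Ptprc, the pan-leukocyte marker, did not exceed 0.00596, and the part of leukocytes in the result was not tested.

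Among single genes of the extracellular matrix that rose, the metalloprotease Adamts7 stood at 5.45, 5.59 and 5.55 FPKM at 21% and at 9.72, 9.53 and 9.62 at 8% (log2 fold change 0.70, adjusted p = 0.00553). Ccn1, a matricellular protein of the integrin-binding CCN family, was 2.56 times and Thbs1, the matrix glycoprotein thrombospondin 1, 2.10 times the 21% mean. The collagen cross-linking enzyme Loxl4 rose from 164 ± 18.7 to 287 ± 7.37 FPKM. The bone morphogenetic protein antagonist Nog rose from 3.53 to 6.54 FPKM. The calls of Nog, Thbs1, Loxl4 and the receptor Tnfrsf22 were lost without 8% replicate 1 or 3, and some also without 21% replicate 1 or 8% replicate 2 (highest adjusted p 0.122), whereas those of Adamts7, Ccn1, Il1rl1, Il18rap and Tnfrsf23 were kept in all 6 omissions.

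**Figure D2:**
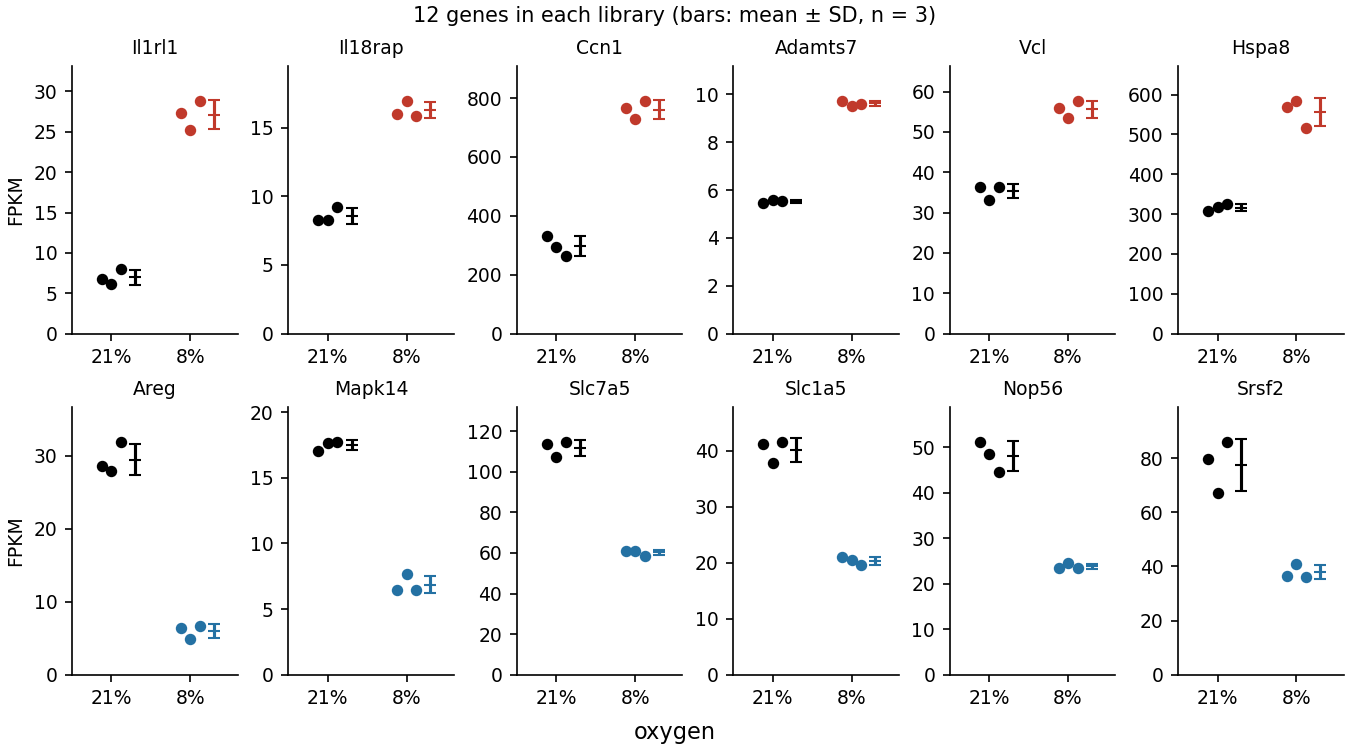
FPKM of 12 genes in each library at 21% (black) and 8% oxygen (red where higher, blue where lower), each panel with its own axis from 0 and with bars for the mean and SD of 3 libraries. In all 12 genes the values at 8% lie clear of those at 21%, for example 53.4 to 57.6 against 33.2 to 36.4 FPKM for Vcl.

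Single genes of growth signalling were among those that fell. Areg, the epidermal growth factor receptor ligand amphiregulin, was at 28.6, 27.9 and 31.8 FPKM at 21% and at 6.34, 4.87 and 6.66 at 8%, 4.94 times lower. Mapk14, which encodes the stress kinase p38 alpha, was at 17.0, 17.7 and 17.7 FPKM at 21% and at 6.48, 7.65 and 6.47 at 8% (-1.23, SE 0.0787, adjusted p = 0.00284). Neither gene showed any overlap between the groups. Ppp3cc, a catalytic subunit of the phosphatase calcineurin, fell from 10.05 to 4.75 FPKM. Etv5, an ETS transcription factor induced by the ERK pathway, fell from 7.42 ± 1.97 to 1.94 ± 0.0964 FPKM (-1.49, adjusted p = 0.00928). Ccnd1, the G1 cyclin D1, was at 91.9, 70.8 and 152 FPKM at 21% and at 42.1, 42.0 and 41.2 at 8% (-1.24, SE 0.256, adjusted p = 0.0302), with 21% replicate 3 the highest.

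Genes named here for proteins that destabilise messenger RNAs went in both directions, and they are not all such genes. Zfp36 and Zfp36l1 bind AU-rich elements in short-lived transcripts and both rose, Zfp36 from 4.63 to 9.58 FPKM (0.91, adjusted p = 0.0129) and Zfp36l1 from 35.7 ± 3.20 to 63.3 ± 2.14 FPKM (0.81, adjusted p = 0.00821). Zfp36l2, of the same family, fell from 75.0 to 44.9 FPKM (-0.71, limma adjusted p = 0.0380), so the family did not move in 1 direction. Zc3h12a, the endonuclease regnase 1, which cuts stem loops in cytokine transcripts, fell from 14.3 to 5.50 FPKM (-1.18, adjusted p = 0.0233). The kinase gene Pim1 rose from 24.0 to 48.0 FPKM, and the phosphatase gene Ctdsp2 rose from 41.8 to 64.4. Of these genes other than Zfp36l2, and those of the signalling group above, Areg, Mapk14, Ppp3cc, Zfp36l1 and Ctdsp2 were called in all 6 omissions. The calls of Etv5, Ccnd1, Pim1, Zc3h12a and Zfp36 were lost without 8% replicate 3, and most of them without 21% replicate 1 or 8% replicate 1 or 2 (adjusted p up to 0.101).

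Solute carrier genes were called lower more often than higher, as were all genes, whose balance rested on the scaling. Of 153 tested genes of the solute carrier (Slc) symbol family 21 were lower (13.7%) and 5 higher (3.27%), beside 9.31% and 4.98% of all genes. The median log2 fold change was -0.14. The lower members included 7 amino acid carriers or their partner chain (Slc1a4, Slc1a5, Slc3a2, Slc7a1, Slc7a5, Slc7a6 and Slc7a11). They were picked from the called members, and the share called among all tested amino acid carriers was not counted. Slc7a11, at 1.88 FPKM at 21% and 0.418 at 8%, passed the filter only through the 21% libraries, so its call adds no support. Slc7a5, the large neutral amino acid carrier, was at 114, 107 and 115 FPKM at 21% and at 61.1, 61.1 and 58.6 at 8% (-0.88, SE 0.0581, adjusted p = 0.00290). Slc1a5, the glutamine carrier, was at 41.3, 37.7 and 41.5 FPKM at 21% and at 21.0, 20.5 and 19.6 at 8% (-0.95, SE 0.0649, adjusted p = 0.00290). In both genes the 3 libraries at 8% lay close together and below every 21% library. Slc7a1, the cationic amino acid carrier, fell from 25.4 ± 0.846 to 13.7 ± 0.278 FPKM. Slc3a2, the heavy chain that carries Slc7a5 to the membrane, fell from 87.6 ± 11.6 to 51.7 ± 0.975 FPKM.

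Carriers of other substrates moved as well. Slc29a1, an equilibrative nucleoside transporter, fell from 19.1 to 10.6 FPKM and Slc16a1, the lactate and pyruvate carrier MCT1, from 34.8 to 21.6 FPKM. Slc5a3, which brings in the osmolyte myo-inositol, rose instead, from 3.77, 5.40 and 3.80 FPKM to 9.75, 11.1 and 10.9, and the mitochondrial carrier Slc25a30 rose from 17.0 to 29.9. Mthfd2 and Shmt2, which pass one-carbon units from serine to folate in mitochondria, fell from 52.8 ± 1.27 to 34.5 ± 1.22 and from 141 ± 8.57 to 83.8 ± 4.02 FPKM. The Slc family counts were 10 lower and 2 higher with the replicate block, and with single libraries left out from 7 to 25 lower, the fewest without 8% replicate 1 or 3 and 8 and 9 without 21% replicate 1 and 8% replicate 2. Single calls of Slc7a1, Slc7a5, Slc1a5, Slc29a1, Slc16a1, Mthfd2 and Shmt2 were kept in all 6 omissions, and those of Slc3a2, Slc25a30 and Slc5a3 were lost without 8% replicate 3 and partly without 21% replicate 1 or the other 8% libraries (adjusted p up to 0.0606).

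Metabolic enzymes outside the pathways of oxygen use also moved. Acsbg1, an acyl-CoA synthetase for long-chain fatty acids, was at 46.6, 42.2 and 41.9 FPKM at 21% and at 22.1, 21.8 and 20.8 at 8% (-0.98, SE 0.0664, adjusted p = 0.00290). Adh7, an alcohol dehydrogenase that also oxidises retinol, was at 11.3, 10.4 and 11.4 FPKM at 21% and at 4.83, 5.05 and 4.17 at 8% (-1.08, adjusted p = 0.00471). Neither gene overlapped between the groups. Ugcg, which makes glucosylceramide, rose from 15.8 to 29.7 FPKM (0.88, adjusted p = 0.00828), and Glul, glutamine synthetase, from 44.1 ± 5.61 to 83.4 ± 10.9. Of 17 polyamine genes 3 were lower (17.6%, against 9.31% of all genes) and 1 higher (5.88%, against 4.98%), and 0 and 0 without 21% replicate 1 or any 8% library. The synthetic enzymes Odc1 and Srm fell, Odc1 from 112 ± 36.4 to 47.0 ± 1.73 FPKM and Srm from 89.1 to 60.4, while Sat1, which degrades polyamines, rose from 23.3 to 32.2. Of 15 prostaglandin and arachidonate genes 4 were lower (26.7%) and 2 higher (13.3%), and quantile normalization gave 2 lower and 4 higher. The exporter Abcc4 fell from 5.91 to 3.01 FPKM, the prostaglandin carrier Slco2a1 from 22.4 to 12.4 and the prostaglandin E synthase Ptges from 4.45 to 2.34, and the aldose reductase Akr1b3 rose from 26.5 to 41.7. Calls of Glul, Odc1, Srm, Sat1, Slco2a1, Ptges and Akr1b3 were lost without 21% replicate 1, 8% replicate 1 or 8% replicate 3, several also without 8% replicate 2 and at least 1 without 21% replicate 2 or 3 (adjusted p up to 0.128).

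Some genes for assembling ribosomes were lower at 8% oxygen. The symbol families Rpl and Rps, named for ribosomal proteins, leaned the other way. Rpl had a median of 0.21, with 45 of 49 genes above 0, 3 called higher (6.12%) and 1 lower. Rps had a median of 0.17, with 32 of 45 above 0, 3 called higher (6.67%) and 2 lower. The lower Rps genes, Rps6kb1 and Rps6ka3, encode kinases that share the symbol stem and not ribosomal proteins. The lower Rpl gene was Rpl7l1, named for its likeness to a ribosomal protein. Over all genes 4.98% were called higher. Nop56 and Nop58, the core proteins of box C/D small nucleolar particles that methylate ribosomal RNA, fell together. Nop56 was at 51.2, 48.7 and 44.5 FPKM at 21% and at 23.5, 24.5 and 23.4 at 8% (-0.98, SE 0.0698, adjusted p = 0.00331). Nop58 was at 15.4, 12.7 and 13.9 FPKM at 21% and at 7.03, 6.90 and 6.91 at 8% (-0.91, adjusted p = 0.00708). The groups did not overlap in either gene. Riok2, a kinase of late small subunit assembly, fell from 18.5 to 11.4 FPKM and Exosc2, a cap subunit of the RNA exosome, from 8.55 to 4.23. Among 32 DEAD-box helicases of the Ddx family 10 were lower (31.2%, beside 9.31% of all genes) and 1 higher (3.12%, beside 4.98%). The median was -0.21, and 7 of the lower ones (Ddx10, Ddx18, Ddx27, Ddx49, Ddx51, Ddx55 and Ddx56) are known for roles in ribosomal RNA processing. Ddx51 fell from 9.88 to 6.40 FPKM and Ddx56 from 18.8 to 12.7. Among 48 genes of the WD repeat family named Wdr 10 were lower (20.8%) and none higher (median -0.10). Of the lower ones 6 (Wdr3, Wdr12, Wdr18, Wdr43, Wdr74 and Wdr75) serve ribosome assembly. In both families these roles were looked up only among called members, after the calls were seen. How many uncalled members share them was not counted, so the 7 and the 6 do not show that such members fell more often. Wdr43, of the small subunit processome, fell from 49.1 to 31.6 FPKM (-0.62).

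The transcription machinery for ribosomal and transfer RNA and the supply of nucleotides moved alongside. Of 35 genes of the RNA polymerase I and III list 10 were lower and 2 higher (median -0.24, against -0.04 over all genes). These were 28.6% and 5.71%, beside 9.31% and 4.98% of all genes. Polr3b, the second largest subunit of polymerase III, fell from 8.35 to 5.05 FPKM and Ubtf, the upstream binding factor of ribosomal DNA, from 16.1 to 11.3. The members that rose, Polr1d (50.2 to 81.1 FPKM) and Polr1c (35.0 to 45.3), form the subcomplex that polymerases I and III share. Of 39 genes for purine and pyrimidine synthesis 10 were lower (25.6%) and none higher (median -0.26). Adsl, which acts late in purine synthesis, fell from 9.75 to 5.80 FPKM, Gart, which acts in its early steps, from 24.5 to 16.5, and the nucleoside diphosphate kinase Nme1 from 20.7 ± 0.698 to 13.2 ± 0.844. Calls of Nop56, Nop58, Riok2, Exosc2 and Nme1 were kept in all 6 omissions. Without 8% replicate 1 or 3 the Ddx, Wdr and polymerase counts fell to 0 lower and the nucleotide count to 1. Without 21% replicate 1 they fell to 0, 1, 1 and 1, and without 8% replicate 2 to 4, 1, 1 and 4. With the replicate block the lower counts were 4 for Ddx, 1 for Wdr, 1 for the polymerases and 2 for nucleotide synthesis. Ddx51, Ddx56, Wdr43, Polr3b, Ubtf, Polr1c, Polr1d, Adsl and Gart lost the call in at least 2 omissions, with adjusted p-values up to 0.101, and Polr1c also without 21% replicate 2.

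Traffic between nucleus and cytoplasm formed another lower group. Of 53 nuclear pore and transport genes 11 were lower (20.8%, beside 9.31% of all genes) and none higher (beside 4.98%), with a median of -0.21. Rcc1, the exchange factor that loads the GTPase Ran in the nucleus, was at 21.5, 20.5 and 22.5 FPKM at 21% and at 12.2, 12.5 and 12.1 at 8% (-0.76, SE 0.0607, adjusted p = 0.00509). Ranbp1, which helps Ran release its cargo complexes in the cytoplasm, was at 98.6, 81.4 and 116 FPKM at 21% and at 56.95, 49.8 and 53.3 at 8% (-0.86, adjusted p = 0.0155). Ran itself fell from 213 ± 37.4 to 146 ± 3.08 FPKM. In all of these genes the 8% libraries lay below the lowest 21% library. Xpot, the export receptor for transfer RNA, fell from 52.3 to 33.9 FPKM and the scaffold nucleoporin Nup205 from 12.95 to 8.11. The call of Rcc1 was kept in all 6 omissions, and those of Ranbp1, Ran, Xpot and Nup205 were lost without 21% replicate 1 or any 8% library (adjusted p up to 0.127), each of which left 1 lower gene in the list. Median-ratio rescaling gave 6 lower and 1 higher in this list, and the replicate block 2 and 0.

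Part of the splicing regulators fell. SR proteins bind exonic enhancers and recruit the spliceosome, and the CLK kinases phosphorylate them. Of 31 genes of that list 8 were lower (25.8%, beside 9.31% of all genes) and 2 higher (6.45%, beside 4.98%), with a median of -0.12. Srsf2 was at 79.9, 67.2 and 86.0 FPKM at 21% and at 36.6, 40.8 and 36.1 at 8% (-1.01, SE 0.105, adjusted p = 0.00828). Srsf6 was at 38.2, 39.6 and 47.0 FPKM at 21% and at 21.2, 21.3 and 20.2 at 8% (-0.95, adjusted p = 0.00805). Neither showed overlap between the groups. Srsf1 fell from 14.2 to 7.53 FPKM and Tra2b from 14.5 to 8.08, while the kinases Clk1 (6.59 to 12.03 FPKM) and Clk3 (6.82 to 8.80) rose. Of 33 hnRNP genes 6 were lower (18.2%) and 1 higher (3.03%), with a median of -0.15, and with the replicate block 1 and 0. Hnrnpm fell from 30.03 to 19.4 FPKM, and Hnrnpc rose from 51.4 to 69.3. The RNA helicase Dhx9 fell from 15.4 to 6.34 FPKM and the paraspeckle protein Pspc1 from 11.4 to 4.90. The calls of Srsf2 and Srsf6 were kept in all 6 omissions. Each of the others was lost without 8% replicate 1, and many without another library, most often 21% replicate 1 or 8% replicate 2 or 3 (adjusted p up to 0.142). In each of the 6 omissions no gene of the SR and CLK list was called higher and 2 to 7 were lower, and of the hnRNP list 1 was lower without 21% replicate 1 or 8% replicate 3, 2 without 8% replicate 2 and 0 without 8% replicate 1.

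The actin cytoskeleton rose in part. Of 49 genes for actin and its contractile partners 7 were higher and none lower (median 0.09). The higher share was 14.3%, beside 4.98% of all genes, which gave 9.31% lower. Vcl, vinculin, which links actin to adhesion sites, was at 36.3, 33.2 and 36.4 FPKM at 21% and at 55.9, 53.4 and 57.6 at 8% (0.64, SE 0.0650, adjusted p = 0.00828). Cnn2, the actin-binding protein calponin 2, was at 70.5, 69.6 and 60.1 FPKM at 21% and at 100, 103 and 102 at 8% (0.60, SE 0.0774, adjusted p = 0.0121). Neither gene overlapped between groups, and their promoters carry the CArG boxes printed above. The promoters of Myh9 and Tpm1, which also rose, held no such match, and that of the proteasome gene Psma6, which fell, held one. Myh9, the heavy chain of non-muscle myosin, rose from 81.4 to 117 FPKM and Tpm1, a tropomyosin that stabilises filaments, from 108 to 155. Pdlim5, Dstn and Tpm4, which bind or sever actin filaments, rose by 0.40, 0.35 and 0.26 on the log2 scale. Vcl was called in all 6 omissions. The list had 3 higher genes without 21% replicate 1, 1 without 8% replicate 1, 3 without 8% replicate 2 and 1 without 8% replicate 3 (adjusted p of the other genes up to 0.136), and 6 higher and 2 lower with a median of 0.01 without 21% replicate 2. With the replicate block 4 were higher and with array weights 14 higher and 7 lower.

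Some genes of early secretory transport rose by small amounts. Of 52 genes for vesicle coats and transport from the endoplasmic reticulum to the Golgi 10 were higher and 1 lower (median 0.07). These were 19.2% and 1.92%, beside 4.98% and 9.31% of all genes. Copb1, a subunit of the COPI coat, was at 30.4, 31.6 and 29.9 FPKM at 21% and at 40.1, 39.7 and 44.3 at 8% (0.42, SE 0.0664, adjusted p = 0.0165). The COPII coat genes Sec24c and Sec23a rose from 14.5 to 19.7 and from 16.2 to 21.6 FPKM. The Golgi stacking protein gene Gorasp1 fell from 6.06 to 3.92 FPKM. Among 23 genes of the Sec symbol family 6 were higher (26.1%) and none lower (median 0.21). The higher ones included Sec61g of the protein translocation channel (13.7 to 18.1 FPKM). All of these calls were lost without 8% replicate 1 or 3, and those of Copb1, Sec24c, Sec23a and Sec61g also without 21% replicate 1 or 8% replicate 2 (highest adjusted p 0.0901). The vesicle list then had no higher gene under any of these 4 omissions, and no gene in either direction with the replicate block.

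Another symbol family that rose was Klhl, the kelch-like adaptors of cullin 3 ubiquitin ligases, with 6 higher and none lower of 19 (median 0.17). The higher share was 31.6%, beside 4.98% of all genes. Klhl40 rose from 1.86 ± 0.223 to 5.92 ± 0.287 FPKM (log2 fold change 1.28, SE 0.0866, adjusted p = 0.00290), a call kept in all 6 omissions, and Klhl24 from 6.79 to 11.3 FPKM (0.66). The count of higher Klhl genes was 1 without 21% replicate 1, 8% replicate 1 or 8% replicate 3, 2 without 8% replicate 2, 3 without 21% replicate 3 and 1 with the replicate block. Of 250 zinc finger genes named Zfp 16 were higher (6.4%) and 12 lower (4.8%), beside 4.98% and 9.31% of all genes.

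**Figure D3:**
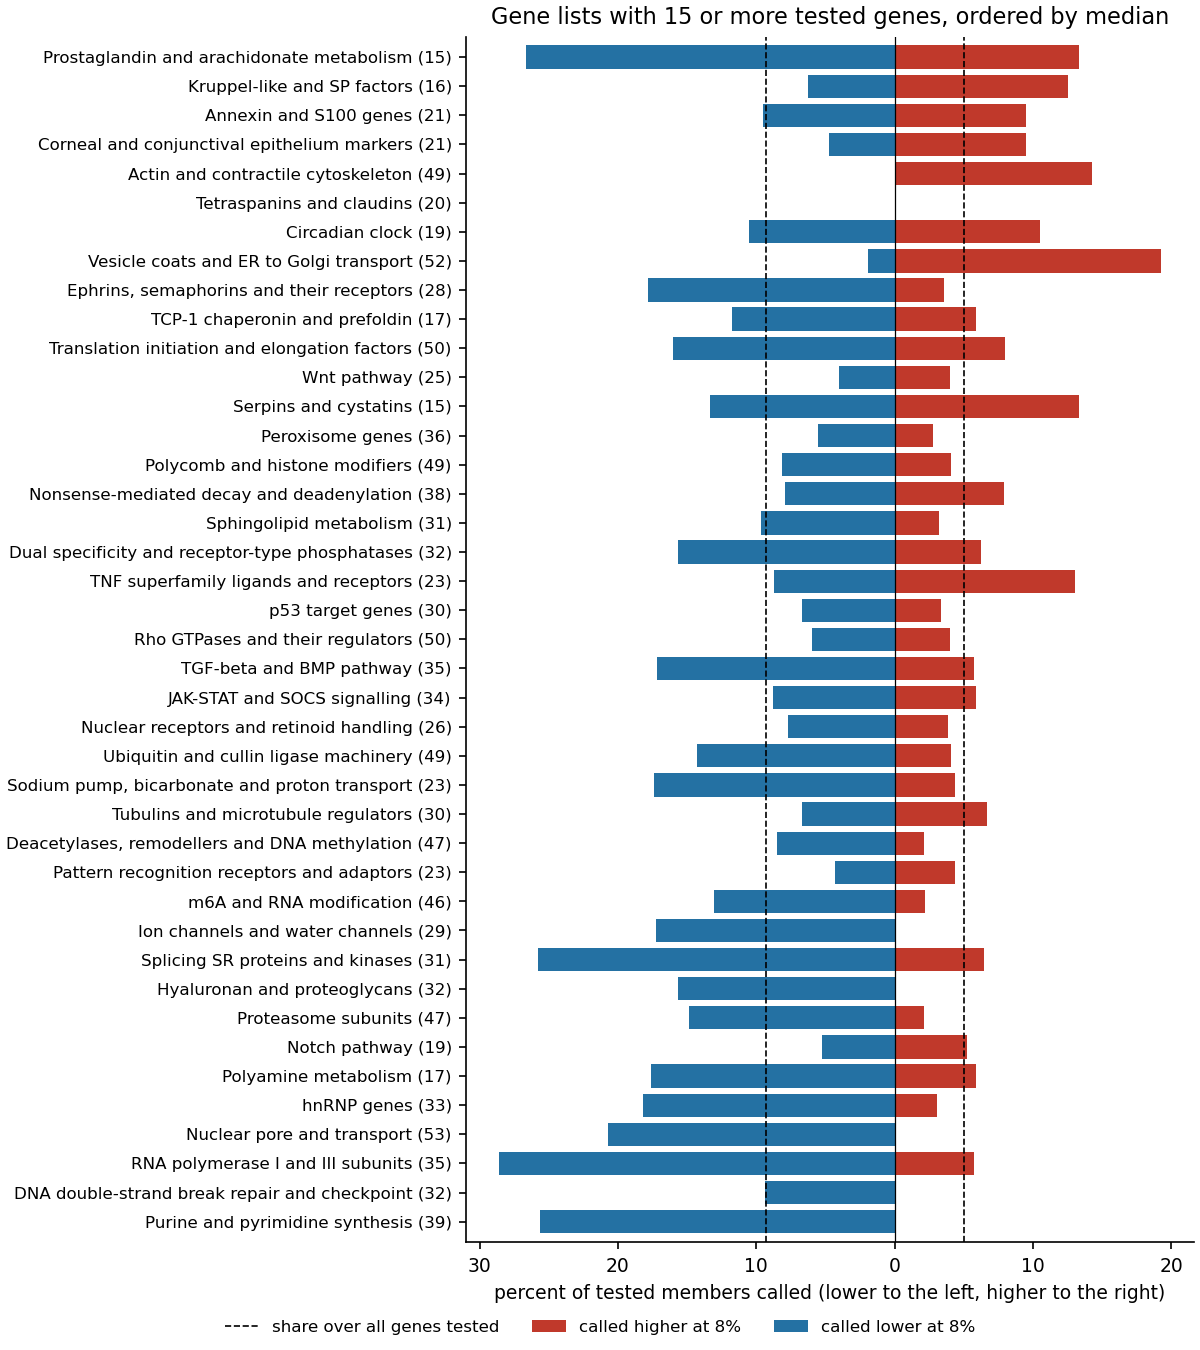
Percent of the tested members of each gene list that were called lower (blue, to the left) or higher (red, to the right) at 8% oxygen, for lists with 15 or more tested genes (number in brackets), ordered by median log2 fold change. Dashed lines mark 9.31% lower and 4.98% higher over all genes; the polymerase, nucleotide, splicing and nuclear pore lists extend furthest left, with the small prostaglandin list, and the vesicle list furthest right.

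In smaller lists a few members were called. Of 19 circadian clock genes 2 rose and 2 fell (10.5% each, beside 4.98% and 9.31% of all genes). Per1 (4.43 to 7.18 FPKM) and the output factor Dbp (7.21 to 11.6) rose, and Arntl, the activator BMAL1 (4.24 to 2.71), and the repressor Ciart (11.5 to 6.49) fell. Of 29 ion and water channel genes 5 were lower (17.2%) and none higher, among them the mechanosensitive channel Piezo1 (34.0 ± 1.16 to 22.2 ± 0.953 FPKM) and the calcium-activated potassium channel Kcnn4 (17.5 to 10.9). Among hyaluronan and proteoglycan genes 5 of 32 were lower (15.6%), among them the heparan sulfate epimerase Glce (26.4 to 17.3). Adaptors of innate immune receptors went in opposite directions, with Myd88 lower (6.82 to 4.27 FPKM) and Ticam1 higher (5.17 to 8.91), and the death receptor adaptor Fadd was lower (2.92 to 1.63). Without 21% replicate 1 or any 8% library 0 proteoglycan genes were lower, and without 8% replicate 1 or 3 the clock list had 0 calls and the channel list 1. Of the genes in this paragraph Piezo1 was called in all 6 omissions. The others were lost without 8% replicate 1 or 3, most of them without 21% replicate 1 or 8% replicate 2, and Ciart also without 21% replicate 2 (adjusted p up to 0.108).

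Among abundant transcripts the shifts were moderate in fold and large in FPKM. The called higher genes together took 5.71% to 6.04% of all FPKM at 21% and 8.36% to 8.43% at 8%, and the called lower genes 7.70% to 8.47% and 5.33% to 5.51%. Hspa8, the constitutive cytosolic chaperone, was at 307, 318 and 325 FPKM at 21% and at 569, 584 and 516 at 8%. Tubb5, a beta tubulin, rose from 442 ± 52.9 to 687 ± 37.9 FPKM, Vim, the intermediate filament vimentin, from 781 to 973 and Krt18, a keratin of simple epithelia, from 498 to 646. On the other side, Fth1, the ferritin heavy chain, fell from 365 ± 34.5 to 268 ± 6.95, the receptor tyrosine kinase gene Axl from 343 to 265, the secreted phosphoprotein gene Spp1 from 197 to 97.2 and the protease inhibitor gene Slpi from 158 to 80.9. The call of Hspa8 was kept in all 6 omissions. Those of Tubb5, Vim, Krt18, Fth1, Axl, Spp1 and Slpi were lost without 21% replicate 1 or any 8% library, and 2 of them without 21% replicate 2 (adjusted p up to 0.136).

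By gene class, counts of calls leaned in different directions, and single libraries moved most of them far. Of 12 mitochondrial transfer RNA genes 6 were higher (50%) and 1 lower (8.33%), with a median of 1.04. In the 6 omissions 4 to 6 of them were higher, and 5 with the replicate block. Transfer RNAs are short, so these values are uncertain. Of 10010 protein-coding genes 489 were higher (4.89%) and 1030 lower (10.3%), with a median of -0.05. Of 917 processed pseudogenes, intronless copies of messenger RNAs, 56 were higher (6.11%) and 22 lower (2.4%), with a median of 0.14. Over all genes the shares were 4.98% and 9.31%. The pseudogene counts were 32 higher and 0 lower without 21% replicate 1, 36 and 32 without 21% replicate 2, 39 and 22 without 21% replicate 3, and 5 and 1, 8 and 2, and 3 and 1 without 8% replicates 1, 2 and 3. They were 11 and 7 with the replicate block, and the median was 0.02 with array weights. The pseudogene Gm15459 was at 739, 795 and 778 FPKM at 21% and at 1430, 1418 and 1260 at 8%, and Gm16477 and Gm18757 rose from 26.7 to 86.9 and from 17.6 to 51.6, while Gm8991 fell from 38.1 to 16.5. Reads that a pseudogene shares with its parent gene can be divided in more than 1 way, so these values are uncertain. Small nucleolar RNA genes, most of which lie inside introns of other genes, gave 0 higher and 7 lower of 106 (median -0.25). The lower share, 6.6%, was below the 9.31% of all genes. Snord59a fell from 4.65 to 1.03 FPKM and Snord80 from 8.90 to 4.90. Without 21% replicate 1 the class had 1 lower gene, and without 8% replicates 1, 2 and 3 it had 3, 4 and 0. These RNAs are shorter than what such libraries capture well and are likewise uncertain. Among 131 long intergenic RNAs 9 were higher (6.87%) and 5 lower (3.82%). The counts were 2 and 0 without 21% replicate 1, and 6 and 6 with a median of -0.01 without 21% replicate 3. They were 5 and 1 without 8% replicate 2, and 1 and 0 without 8% replicate 1 or 3. Malat1, an abundant nuclear RNA, was at 32.1, 51.5 and 37.4 FPKM at 21% and at 68.3, 103 and 75.2 at 8% (1.02, SE 0.214, adjusted p = 0.0317). The microRNA gene Mir8114 rose from 58.3 to 121 FPKM, a value that cannot be told apart from its host transcript. Gm15459 was called in all 6 omissions, and the 7 others named here lost the call without at least 1 library, most often 8% replicate 3 and at times 21% replicate 1, 2 or 3 or another 8% library (adjusted p up to 0.104).

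Expression level and transcript composition went with the share of calls. Over 5 bins of equal size by mean FPKM the share called higher went from 2.84% in the lowest to 8.77% in the highest, and the share called lower from 6.19% to 9.72%. By the length of the longest transcript, protein-coding genes were called lower in 13.2% of the bin of 1973 to 2924 bases and in 7.89% of the longest bin. By its GC content, 3.65% of the lowest of 5 bins and 6.44% of the highest were called higher. A low FPKM limits both precision and fold change on the log2(FPKM + 1) scale, so the shares of the lowest bin do not show that these genes differed less.

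A set of 12 genes had its extreme at 8%, beyond both 21% and 1% oxygen. In a fit to all 9 libraries 15 genes (0.129%) were called between 1% and 8%, and 12 of these were also called between 8% and 21%. The 2 comparisons share the 8% libraries, so they are given side by side. Highest at 8% were Il1rl1, Il18rap, Slc5a3, Adamts7, Zkscan17 and Gm42742. Slc5a3 was at 3.77, 5.40 and 3.80 FPKM at 21%, at 9.75, 11.1 and 10.9 at 8% and at 4.78, 5.51 and 5.13 at 1%. Zkscan17, a KRAB zinc finger gene, was at 29.4, 29.1 and 26.9 FPKM at 21%, at 44.9, 42.4 and 43.4 at 8% and at 30.1, 31.1 and 30.6 at 1%. In both, the 1% libraries lay close to the 21% libraries. Il1rl1, Il18rap and Adamts7 stood at 14.6, 11.3 and 6.83 FPKM at 1%, between the other levels. The uncharacterised gene Gm42742 averaged 0.717 FPKM at 21%, 5.10 at 8% and 1.27 at 1%. With a 21% mean under 1 FPKM it could not have passed the filter without the 8% libraries, so its calls add no support.

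Lowest at 8% were Lcn2, St3gal2, Kcnab2, Acy1, mt-Cytb and mt-Nd1. Lcn2, the iron-chelator-binding protein lipocalin 2, was at 13.8, 10.2 and 14.1 FPKM at 21%, at 6.59, 6.51 and 6.18 at 8% and at 13.2, 12.8 and 12.4 at 1%. St3gal2, a sialyltransferase, averaged 20.8, 13.02 and 21.0 FPKM at 21%, 8% and 1%, and the potassium channel subunit Kcnab2 5.99, 3.60 and 5.93. Acy1, an enzyme that frees amino acids from their acetylated forms, averaged 5.46, 3.21 and 5.13 FPKM. The mitochondrial transcripts mt-Cytb and mt-Nd1 averaged 1969, 1085 and 1700 and 1356, 933 and 1474 FPKM. They do not stand for all mitochondrial genes. Of 27 tested, 7 were higher (25.9%) and 4 lower (14.8%) at 8% than at 21%, beside 4.98% and 9.31% of all genes. The mitochondrial share of FPKM also varied, at 6.02%, 8.52% and 6.28% in 8% replicates 1 to 3. In the comparison with 21%, calls of Slc5a3 and mt-Cytb were lost without 8% replicate 3, of St3gal2 and Acy1 also without 8% replicate 1, of Kcnab2 without 21% replicate 1 as well, and of Lcn2 and mt-Nd1 without 21% replicate 1 or any 8% library (adjusted p up to 0.0842).

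**Figure D4:**
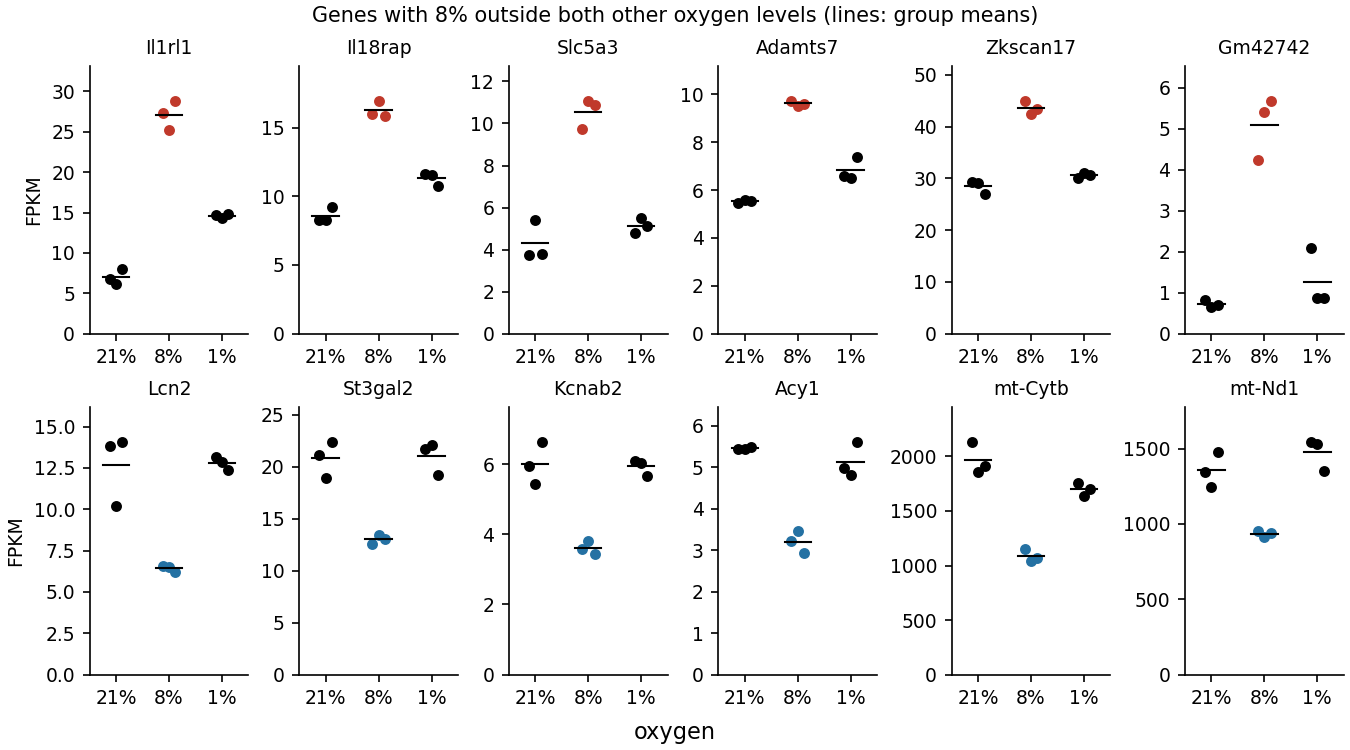
FPKM in each library at 21%, 8% and 1% oxygen for the 12 genes called in both neighbouring comparisons with 8% outside the other levels, with lines at the group means and an axis from 0 in each panel. The upper 6 peak at 8%, for example Zkscan17 at 42.4 to 44.9 FPKM, and the lower 6 have their minimum there, for example Lcn2 at 6.18 to 6.59.

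The motifs were counted over all promoters. A RefSeq promoter of the printed length was matched for 8265 of the 11624 genes, and 8 motifs were searched on both strands. The E-box CACGTG stood in 10.8% of all promoters, in 9.72% of those of higher genes and in 13.6% of those of lower genes. Its core ACGTG, part of the hypoxia response element and contained in the E-box, stood in 27.1%, 27.5% and 28.6%. The CArG box stood in 1.25%, 1.9% and 0.94%, and the TEAD motif GGAATG in 11.4%, 14% and 11.6%. TGACGTCA stood in 3.41%, 1.66% and 3.06%, the AP-1 motif TGANTCA in 4.84%, 6.40% and 5.52%, the amino acid response motif TGATGNAAT in 0.375%, 0% and 0.705%, and CCAAT in 39.5%, 43.4% and 36.5%. These shares were not tested, and a match in this window is a description of letters only.

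**Figure D5:**
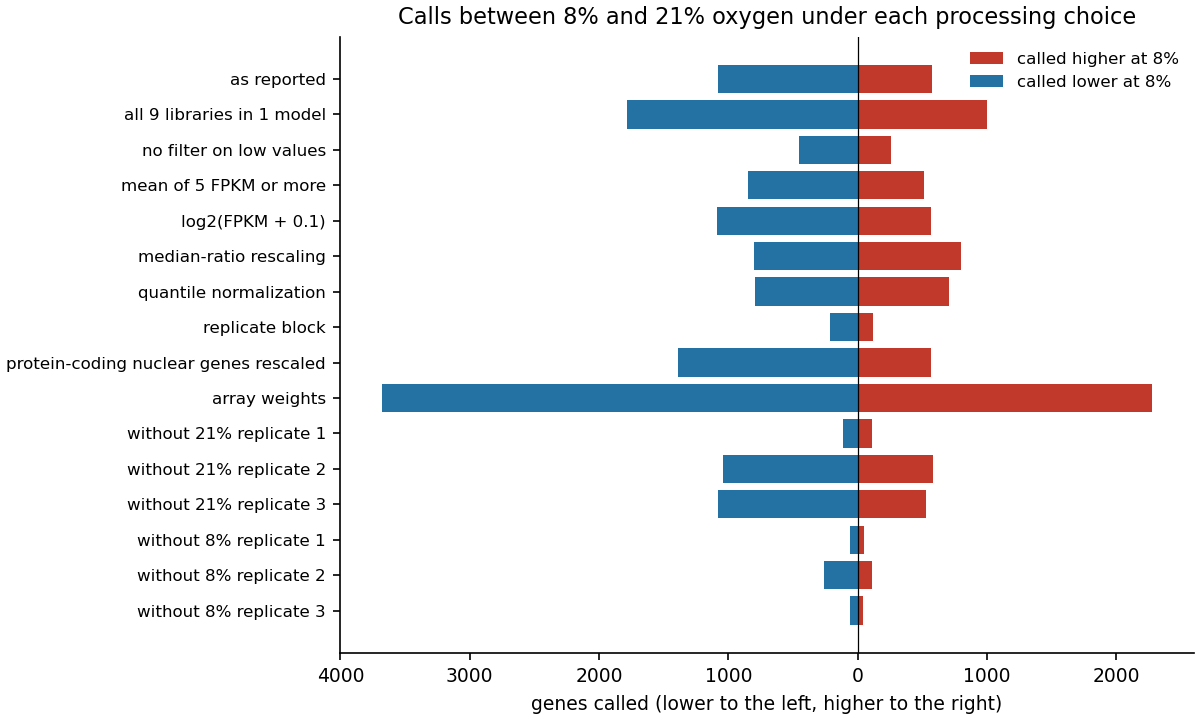
Genes called lower (blue, to the left) and higher (red, to the right) at 8% against 21% oxygen as reported and under each of 15 alternatives. The fewest calls came without 8% replicate 3 (97) or 1 (110), and the most with array weights (5953).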

How the data were processed

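Per the labels' protocols, TRIzol was used for extraction, and 1 µg of RNA went into Illumina's TruSeq Stranded mRNA kit. The authors deposited gene-level FPKM for 9 libraries. StringTie 1.3.4d and HISAT2 2.0.4 are named in the submitters' processing notes, beside cutadapt 1.9.1, FastQC 0.11.8 and the build mm10. The sources used here give neither annotation nor strand setting nor read counts, so depth is unknown. Values above 0 began at 1e-06, and 6.04% of values of genes with a single transcript lay below what 1 fragment of 100000000 would give, so no read counts could be recovered and no counting interval is given.

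Genes at 1 FPKM or more in 3 of 6 libraries were tested on log2(FPKM + 1) with limma 3.58.1 in R 4.3.3 (group means, mean-variance trend, two-sided), with Benjamini-Hochberg adjustment over all 11624 genes and calls at an adjusted p of 0.05. The pseudocount understates changes of low genes. The comparison of 1% with 8% used 1 model of 9 libraries. The script was tested on simulated data. Of the tested genes, 36 passed the filter only through the 8% libraries (22 called) and 68 only through the 21% libraries (31 called). Identifiers were matched to GENCODE M21 (26378 of 26445), promoters to RefSeq GRCm38.p6 by symbol.

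The members, the 47 gene lists and the naming rule were chosen with earlier results of these data known. The rule names, in each direction, the 25 called genes of largest change that average 5 FPKM without overlap, the 12 largest FPKM differences per direction, up to 4 called members per list, the 8 non-coding genes and the 8 smallest p-values per direction, genes extreme at 8%, and 3 called members per symbol family (80 families of 12 or more genes). It gives 262 genes. Others, including those called throughout, were chosen after their values were seen.

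Alternatives were 9 libraries in 1 model, no filter, a mean of 5 FPKM, log2(FPKM + 0.1), median-ratio rescaling, quantile normalization, a replicate block, rescaled protein-coding nuclear genes, array weights and each library left out.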

Additional observations from a re-analysis of the deposited data

How the results depend on the processing

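The total was 2783 calls with all 9 libraries in 1 model (997 higher, 1786 lower), 711 without a filter (258 and 453) and 5953 with array weights (2276 and 3677), whose estimation stopped before it converged. With single libraries left out the calls ranged from 97 to 1625, the higher genes from 42 to 587 and the lower genes from 55 to 1081, with 74 of the 1661 called in all 6 omissions; these fits hold fewer samples. Median-ratio rescaling, quantile normalization, a mean of 5 FPKM, log2(FPKM + 0.1) and rescaled protein-coding genes kept the total within 1.5 times (1604, 1502, 1359, 1659 and 1954). Same-numbered libraries deviated from their group means with correlations of -0.02, 0.0563 and 0.0856, so the numbers do not pair the samples; a replicate block gave 333 calls (122 higher, 211 lower). Of the 262 genes named by rule, 222, 217, 201 and 179 lost the call without 8% replicate 3, 8% replicate 1, 21% replicate 1 and 8% replicate 2, and 38 and 40 without 21% replicates 2 and 3. The call was lost by 164 with the block and 139 without a filter, 27 and 29 after the rescalings, and 4 with 9 libraries. The cause was not tested. Depth is unknown, so no limit from counting can be given for low values.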

Other observations

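Some abundant transcripts differed widely among the 8% libraries. The mitochondrial transcript mt-Atp6 was at 339, 3145 and 1849 FPKM in 8% replicates 1 to 3 and at 2730, 2649 and 2232 at 21% (log2 fold change -1.01, limma adjusted p = 0.396). Rps18-ps6, a copy of a ribosomal protein gene, was at 471, 0 and 1508 FPKM at 8% and at 1444, 1525 and 1396 at 21%. The predicted genes Gm10925, Gm28439 and Gm10222 were lowest in 8% replicate 2, Gm10925 at 1831, 406 and 1667 FPKM against 2067, 2218 and 2398 at 21%. The share of FPKM from mitochondrial genes was 8.52% in 8% replicate 2 and 6.02% and 6.28% in 8% replicates 1 and 3. These genes were chosen after their values were seen, and none was called.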
